A study of Mus musculus with 2 samples.

Results

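The genes described here are 41 protein-coding mouse genes known as imprinted or lying in imprinted clusters, of 21853 protein-coding genes in the annotation. They were listed by name, and all 41 were found. The assay was DNase-seq, in which the enzyme DNase I cuts accessible DNA in nuclei and the cut ends are sequenced. The tissue was neural tube, the embryonic forerunner of brain and spinal cord, dissected from B6NCrl embryos at 11.5 days, with both sexes pooled. There was 1 group, with no treatment or mutation in the labels, and 2 biological replicates with 1 library each, here replicate 1 and replicate 2. Both replicates carry the same donor label, and no second group was compared, so each value is given for both libraries and no test across samples was run.

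An imprinted gene is expressed mainly from the chromosome inherited from one parent. The choice is set by DNA methylation laid down in egg or sperm at a control element, which then acts on neighbouring genes, often through a noncoding RNA or through the insulator protein CTCF. In the embryo, ZFP57 and its partners keep methylation on the marked copy. Many imprinted genes act in growth, placenta or brain. The deposited files do not separate the parental copies, so a peak here could come from either copy or both, and openness in few cells cannot be told apart from partial openness in many.

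A peak in these files is a 150 bp window with a score that the authors gave, never above 150. Scores were used only to rank peaks within a library, as a percentile that rises with the score. A hotspot is a broader region of enriched cutting with a −log10 q-value. Replicate 1 held 199653 peaks and replicate 2 held 154324, and the read depth is unknown. All 10 neural tube marker genes, among them Sox2 and Pax6, had a promoter peak in both libraries. None of 7 erythroid and none of 5 liver markers had one. Among other cell types, 3 of 5 endothelial markers had one in each library, 2 of them in both, and 5 of 6 mesoderm and muscle markers in replicate 1 and 6 of 6 in replicate 2. The part of those cells in the values below was not tested.

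The control element upstream of H19, a noncoding RNA next to Igf2, is the best known CTCF insulator of an imprinted cluster. It held 4 matches to the CTCF consensus between 1 and 5 kb upstream of the H19 start. They are shown first because the open regions of both libraries lie on them. Each is written on the minus strand, the strand of H19, with the 12-base match in capitals and 9 bases to either side (mm10).

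H19 site 1, chr7:142580302-142580331: cagacgatgCCGCGTGGTGGCagtacaata
H19 site 2, chr7:142580757-142580786: cggatgctaCCGCGCGGTGGCagcatactc
H19 site 3, chr7:142581783-142581812: ccagggttgCCGCACGGCGGCagtgaagtc
H19 site 4, chr7:142582027-142582056: cgggagttgCCGCGTGGTGGCagcaaaatc

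All 4 matches carried 2 or 3 CpG dinucleotides, the bases that DNA methylation modifies, and all ran in the same direction. Relative to the H19 start they lay at -2173, -2628, -3654 and -3898 bp. Every one of the 4 was inside a hotspot in both libraries. Site 1 was inside a peak in both libraries, at the 87.2 percentile in replicate 1 and the 78.8 percentile in replicate 2. Site 2 was inside a peak in replicate 2, at the 83.4 percentile, and 21 bp from one in replicate 1. Site 3 was inside a peak in replicate 1, at the 84.6 percentile, and 13 bp from one in replicate 2. Site 4 was in no peak, with the nearest 131 bp away in replicate 1 and 71 bp away in replicate 2. The 4 kb window held 4 peaks and 3 hotspots in each library, and hotspots covered 1637 bp of it in replicate 1 and 1596 bp in replicate 2. Of all coding genes, 37.0% had at least 1 match in the same window upstream of their first TSS (transcription start site), and 3.04% had 4 or more.

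The first intron of Peg3, which encodes a zinc finger protein, is known for a row of sites for the factor YY1. The first 5 kb downstream of the Peg3 start held 10 matches to the YY1 consensus AANATGGCG, read on both strands, against at least 1 match in 9.45% of coding genes and 10 or more in 12 genes of 21853, Peg3 included. The 5 matches that lay inside a peak are shown on the plus strand, opposite to Peg3, with the match in capitals.

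Peg3 site 1, chr7:6729580-6729606: ccaccctccAAGATGGCGccaactggg
Peg3 site 4, chr7:6728730-6728756: cagccagcaAAGATGGCGtcagggtag
Peg3 site 5, chr7:6728442-6728468: ttgctggcaAAGATGGCGccaaattgg
Peg3 site 7, chr7:6727955-6727981: acgtcagcaAAGATGGCGtcaggtggg
Peg3 site 9, chr7:6727414-6727440: tggccaacaAAGATGGCGccagaggga

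The 10 matches lay between 828 and 3116 bp downstream of the start, all in the same direction, and all 10 were inside a hotspot in both libraries. Sites 1, 4 and 7 were inside a peak in both libraries. Site 1 stood at the 94.6 and 93.7 percentiles, site 4 at 95.5 and 92.4, and site 7 at 88.1 and 89.4, for replicates 1 and 2. Sites 5 and 9 were inside a peak in replicate 1 only, and site 9 was 5 bp from a peak in replicate 2. The remaining 5 matches lay outside the peaks. One hotspot of 4709 bp in replicate 1 and one of 3564 bp in replicate 2 ran from upstream of the start across all of them.

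**Figure D1:**
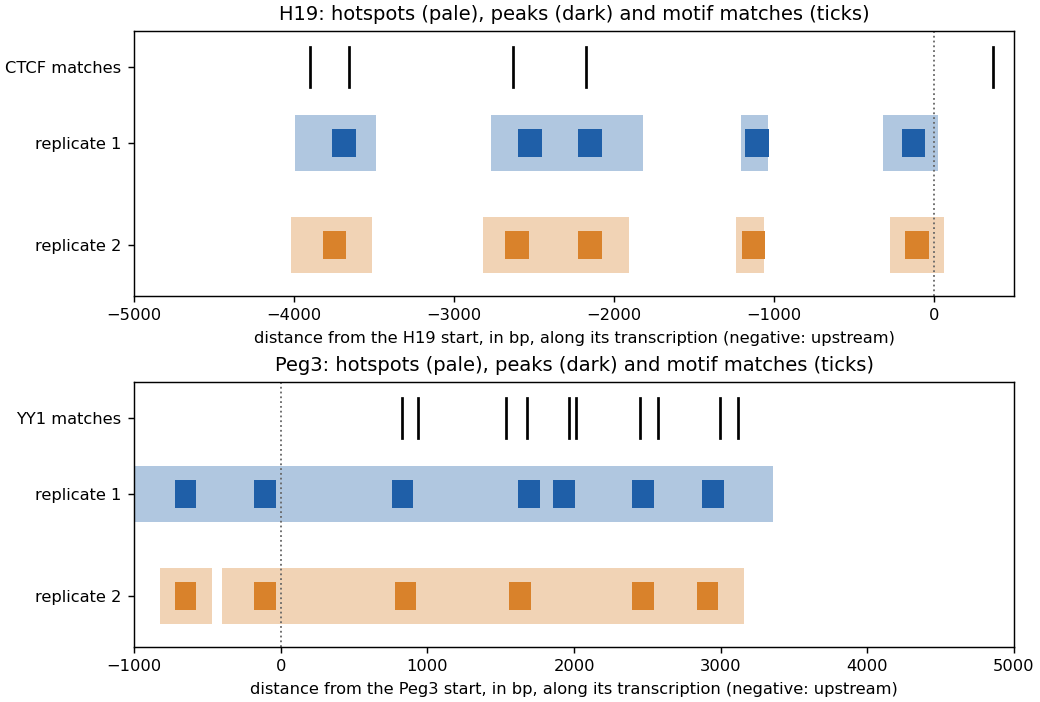
Open regions upstream of H19 and in the first intron of Peg3, by distance from the gene's start in bp; pale bars are hotspots, dark bars are peaks, blue is replicate 1 and orange is replicate 2, and ticks mark consensus matches. The 4 CTCF matches upstream of H19 and the 10 YY1 matches of Peg3 all fall inside hotspots of both libraries; a further CTCF match inside H19, downstream of its start, does not.

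ZFP57 recognises the hexamer TGCCGC when its CpG is methylated. Several control elements held a peak with 2 or more copies of this hexamer in both libraries, namely those of H19, Meg3, Rasgrf1, Kcnq1ot1, Airn and Snrpn. The replicate 1 peaks of 4 of them are shown as examples on the plus strand of mm10, with each copy on either strand in capitals. The Meg3 element is the intergenic control element of the Dlk1-Dio3 cluster, the Rasgrf1 element lies upstream of that gene, and the Kcnq1ot1 and Snrpn peaks lie at their starts.

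Meg3 upstream, chr12:109528316-109528465: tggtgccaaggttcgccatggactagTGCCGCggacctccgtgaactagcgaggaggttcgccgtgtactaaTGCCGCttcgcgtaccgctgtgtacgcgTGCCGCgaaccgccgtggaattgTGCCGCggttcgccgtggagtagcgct
Rasgrf1 upstream, chr9:89879696-89879845: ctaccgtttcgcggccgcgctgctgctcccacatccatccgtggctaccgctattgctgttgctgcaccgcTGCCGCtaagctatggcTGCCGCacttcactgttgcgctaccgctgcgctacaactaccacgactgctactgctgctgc
Kcnq1ot1 start, chr7:143295656-143295805: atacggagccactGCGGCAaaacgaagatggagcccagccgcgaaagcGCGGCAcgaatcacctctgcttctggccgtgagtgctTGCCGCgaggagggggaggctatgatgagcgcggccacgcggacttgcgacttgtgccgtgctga
Snrpn start, chr7:60005076-60005225: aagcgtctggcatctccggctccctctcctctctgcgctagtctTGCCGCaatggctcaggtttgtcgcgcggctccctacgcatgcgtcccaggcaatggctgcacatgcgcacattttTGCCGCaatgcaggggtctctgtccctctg

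Each of these 4 peaks overlapped a peak in the other library. The Meg3 peak held 4 copies and 22 CpGs. It stood at the 67.1 percentile in replicate 1, and the overlapping peak of replicate 2 with 4 copies stood at 44.6. The Rasgrf1 peak, 30138 bp upstream, held 2 copies and stood at 83.0, with 78.8 for its counterpart in replicate 2. The Kcnq1ot1 peak, 819 bp into that antisense RNA, held 3 copies and stood at 78.6 and 66.0, and the peak at the Kcnq1ot1 start itself reached 93.7 and 92.6. The Snrpn peak held 2 copies and stood at 90.2 and 85.0. Among distal peaks nearest to the 41 genes, 6 of 633 in replicate 1 and 5 of 502 in replicate 2 held 2 or more copies, beside 0.164% and 0.223% of all distal peaks. These counts include the Meg3, Rasgrf1, Kcnq1ot1 and Airn peaks of the control elements named above, so they are not a separate result. A single copy or more was found in 5.21% and 6.57% of the distal peaks nearest to the 41 genes and in 3.42% and 4.41% of all. The median GC content was 51.3% and 54.0% in these distal peaks, and 50% and 52.7% in all. A match is a stretch of letters and does not show that the protein was bound.

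Control elements were taken more widely as 17 windows, the upstream elements of H19, Meg3 and Rasgrf1 and the starts of 14 genes with 1 kb to either side. They held 79 peaks in replicate 1, of which 61 overlapped a peak of the other library, and 80 in replicate 2, of which 67 did. At least 1 copy of the ZFP57 hexamer was found in 24.1% and 28.8% of these peaks, and 2 or more in 10 and 8 of them, or 12.7% and 10%. Those with 2 or more lay in 8 windows in replicate 1 and 7 in replicate 2. The windows were rich in CpG, with a median of 9 and 10.5 per peak, where all distal peaks had 2 and 3 and all promoter peaks 11 and 12. Most of these windows are themselves gene starts, so promoter peaks are the nearer comparison. Of all promoter peaks, 12.7% and 13.6% held at least 1 copy, and 1.25% and 1.501% held 2 or more.

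A gene's promoter was called open where at least 1 TSS had a peak within 500 bp on either side. Genes with more TSSs thus had more chances to be called open, and comparisons with all coding genes were not matched for this. Of the 41 genes, 34 had a promoter peak in replicate 1 and 35 had one in replicate 2 (mean 34.5 ± 0.707, SD, n = 2). Over all coding genes the shares were 68.5% and 67.7%. Both libraries had one at 33 genes, where 66.5% of all coding genes did. Hotspots gave the same counts, 34 and 35, beside 68.9% and 68.1% of all. A promoter peak in the top 10% of scores was present at 23 genes in replicate 1 and 19 in replicate 2, where 51.0% and 48.2% of all genes had one. The median of the best promoter percentile was 93.5 and 91.3 over the genes with a peak, and 95.7 and 94.7 over all such genes.

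The genes were also classed by the parent whose copy is known to be expressed, without regard to the tissue in which the imprint holds. Of 21 genes classed as paternally expressed, 18 were open in both libraries. Of 17 classed as maternally expressed, 12 were, beside 66.5% of all coding genes. The 3 genes classed as varying by isoform or tissue, Grb10, Gnas and Blcap, were all open in both. Genes in the parental classes, such as Ube3a, can vary by tissue too. The 33 genes open in both libraries all had a best peak above the 70th percentile, with the lowest at 72.6 and 76.4, both at Zrsr1. The 3 genes open in 1 library only had best peaks below the 50th percentile.

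In the Igf2-H19 and Kcnq1 domain, 6 of 10 genes were open in replicate 1 and 8 in replicate 2. Tssc4, whose protein works in spliceosome assembly, had one of the strongest promoter peaks, at the 99.96 and 99.2 percentiles. Cdkn1c, a cyclin-dependent kinase inhibitor that halts the cell cycle, stood at 99.1 and 98.6. Cd81, a tetraspanin of the cell surface, stood at 95.3 and 95.2. Igf2, a fetal growth factor, reached 92.0 and 85.8. Ascl2, a bHLH factor of the trophoblast, reached 89.5 and 89.9, and Phlda2, which restrains placental growth, 80.3 and 78.8. The 2 libraries gave these 6 genes nearly the same place in their rankings, with the widest gap at Igf2. The Igf2 values come from 2 different peaks. Peaks that overlapped between libraries stood at 92.0 and 84.6 near one Igf2 start, and at 85.9 and 85.8 near another.

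The other 4 genes of the domain were closed or weak. Kcnq1, a potassium channel gene, had no promoter peak in replicate 1 and one at the 39.6 percentile in replicate 2. Ins2, an insulin gene, had none in replicate 1 and one at 16.2 in replicate 2. That peak lay at the start of a lone transcript, and the group of starts shared by 7 Ins2 transcripts had no peak in either library. The transporter gene Slc22a18 had no promoter peak in either library, with the nearest peak centre 3606 bp away in both. Tspan32, another tetraspanin gene, also had none, and its nearest peak centres lay 1782 and 2176 bp away.

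In the Dlk1-Dio3 cluster, 2 of 3 genes were open. Dlk1, a membrane protein related to Notch ligands, stood at 82.0 and 86.1. Dio3, an enzyme that inactivates thyroid hormone, stood at 83.5 and 78.8. Rtl1, a retrotransposon-derived gene of the placenta, had no promoter peak, and its nearest peak centres lay 3960 and 6000 bp from the start. Meg3, the noncoding RNA of the cluster, had start peaks up to 90.8 and 83.8, whereas Rian had none at its starts and 14 and 12 peaks within its body.

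Every gene of the Peg3, Peg10 and Mest clusters was open in both libraries. Peg3 and Usp29, a ubiquitin peptidase gene, start head to head and shared 1 promoter peak, at 95.7 and 95.2. Zim1, another zinc finger gene, stood at 96.2 and 95.4. Peg10, retrotransposon-derived and needed for the placenta, and Sgce, a sarcoglycan, likewise shared 1 peak, at 88.8 and 87.5. These were the only peaks counted for 2 of the genes in either library.

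Ppp1r9a, which encodes the actin-binding protein neurabin, stood at 94.1 and 93.2. Copg2, a coat protein of Golgi vesicles, stood at 99.4 and 99.8, among the strongest. Mest, a hydrolase, stood at 93.7 and 92.8, and Klf14, a zinc finger factor without introns, at 88.8 and 84.6. Of the 4 groups of Mest starts, only the most downstream had a peak.

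At the Igf2r cluster the parts differed. Igf2r, the receptor that clears IGF2, stood at 97.0 and 97.5. The neighbouring organic cation transporter genes were closed or weak. Slc22a2 had no promoter peak, with the nearest centre 4717 bp away in both libraries. Slc22a3 had 4 promoter peaks in replicate 1, the best at 48.1, and none in replicate 2, where the nearest centre was 22246 bp away. Airn, the antisense RNA that starts within Igf2r, had a start peak at 76.3 and 79.9.

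In the Snrpn domain, 5 of 6 genes were open in both libraries. Ube3a, a ubiquitin ligase expressed from the maternal copy in neurons, stood at 99.4 and 99.9. Mkrn3, a RING finger gene, stood at 93.4 and 90.6, and Snrpn, a spliceosome protein gene, at 90.2 and 85.0. Magel2, of the MAGE family, stood at 89.9 and 89.9, and Peg12, a relative of the Wnt pathway gene Frat1, at 88.5 and 85.8. No annotated start of Snhg14, the long RNA that runs through the domain, had a peak. Those starts all lie downstream of the open Snrpn start, and other annotations of this RNA were not tried.

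Ndn, another MAGE family gene, was the sixth, and its closed promoter depended on the annotation. The GENCODE start had no peak within 500 bp. The RefSeq start lies 1708 bp away, and a peak centred 13 bp from it stood at 92.9 in replicate 1 and 90.6 in replicate 2. This peak is shown on the plus strand with its match to the NRF1 consensus GCGCNTGCG in capitals, beside the peak at the start of Nnat, in which matches on both strands overlap.

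Ndn RefSeq start, chr7:62348216-62348365: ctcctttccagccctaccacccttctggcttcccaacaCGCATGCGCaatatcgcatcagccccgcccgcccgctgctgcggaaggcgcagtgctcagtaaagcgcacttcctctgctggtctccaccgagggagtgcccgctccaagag
Nnat start, chr2:157560016-157560165: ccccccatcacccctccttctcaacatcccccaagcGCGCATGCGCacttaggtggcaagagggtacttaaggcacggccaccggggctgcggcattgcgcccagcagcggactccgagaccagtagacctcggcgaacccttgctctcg

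The NRF1 consensus was found in 3 of 86 promoter peaks of the 41 genes in replicate 1 and 3 of 83 in replicate 2, or 3.49% and 3.61%, beside 6.22% and 6.67% of all promoter peaks. RefSeq listed a start for 33 of the 41 genes. With those starts added, a choice made after the Ndn peak was seen, 35 and 36 genes were open and 34 in both libraries.

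The 10 genes that remain were all open in both libraries. Gnas, which encodes the G protein alpha subunit, stood at 97.5 and 97.5, and Plagl1, a zinc finger factor that limits growth, at 95.04 and 93.2. Nnat, a small membrane protein of developing neurons, stood at 93.9 and 92.6, and Blcap, which surrounds Nnat, at 93.9 and 92.0. Grb10, an adaptor that dampens insulin signalling, stood at 93.4 and 89.9. Impact, a regulator of translation, stood at 94.1 and 96.0, and Rasgrf1, an exchange factor for Ras, at 91.1 and 88.6. Zdbf2, a zinc finger gene linked to growth, stood at 90.5 and 91.3. Commd1, a copper metabolism gene, stood at 98.9 and 95.2, while Zrsr1, a retrogene inside its intron, was the weakest of the genes open in both, at 72.6 and 76.4.

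**Figure D2:**
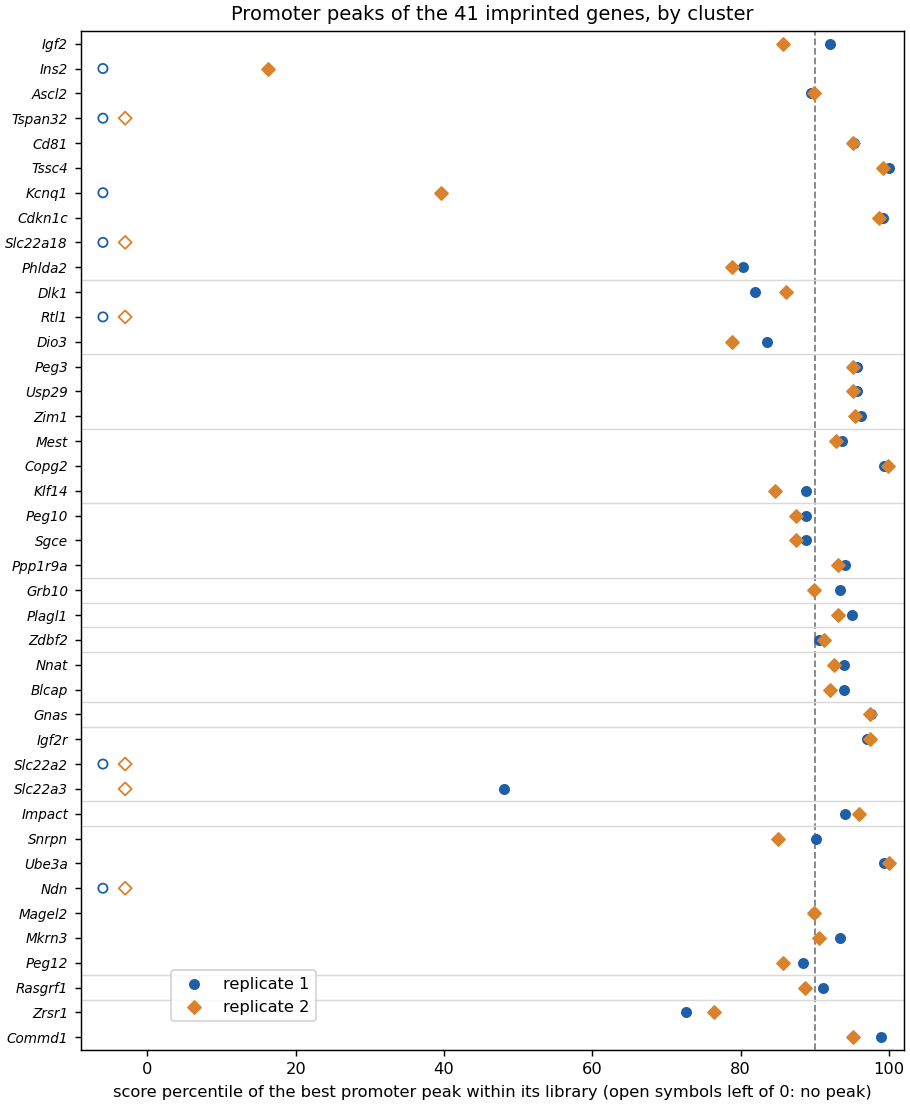
Score percentile of the best promoter peak of each of the 41 genes within its library, grouped by cluster between grey lines; circles are replicate 1, diamonds are replicate 2, open symbols left of 0 mark genes with no promoter peak, and the dashed line is the 90th percentile. The 33 genes open in both libraries all sit above 70, and the 3 genes open in 1 library only, Ins2, Kcnq1 and Slc22a3, sit below 50.

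Many imprinted genes use several starts that differ in imprint. Of the 41 genes, 21 had starts more than 500 bp apart, in 66 groups. Peaks were found in both libraries at 37 groups, in 1 library at 8 and in neither at 21. Start groups of other coding genes were not counted, so these numbers have no background to compare with. Gnas had a peak at all 5 of its groups in both libraries, weakest at the second group in replicate 1, at 70.6, and at the third in replicate 2, at 72.9. The most downstream group, which makes the common G protein subunit, had the strongest. Grb10 had peaks at 3 of 5 groups. Its second group stood at 88.8 and 88.9 and the fourth at 93.4 and 89.9. Plagl1 stood at 95.04 and 93.2 at its second group, but at 50.9 and 62.7 at its first. Snrpn had its strong peak at the downstream group, and its upstream group had only a peak at the 7.72 percentile in replicate 1.

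Hotspots covered 4.08% of the cluster spans in replicate 1 and 2.71% of them in replicate 2 (mean 3.39% ± 0.969, SD, n = 2). The spans are the 15 clusters with 50 kb added to either side, 8328 kb in all. The span of the Igf2-H19 and Kcnq1 domain began at chr7:142600766. It therefore left out H19 and its control element, whose window ended at chr7:142583143. Over the whole genome the cover was 2.97% and 1.92%. In 13 clusters it was above the genome in both libraries. The Snrpn domain, by far the longest span at 3336 kb, was below it at 1.13% and 0.714%. The Peg10 cluster was above the genome in replicate 1 at 3.34% and just below it in replicate 2 at 1.89%. Like spans around other coding genes were not measured, so these values are not shown to be particular to imprinted clusters.

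The cover was higher in replicate 1 in 14 clusters and higher in replicate 2 in 1, the Nnat cluster. There it was 10.3% in replicate 1 and 19.2% in replicate 2. At Zdbf2 it was 24.8% in replicate 1 and 4.17% in replicate 2. Gnas was high in both libraries, at 12.04% and 9.45%.

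**Figure D3:**
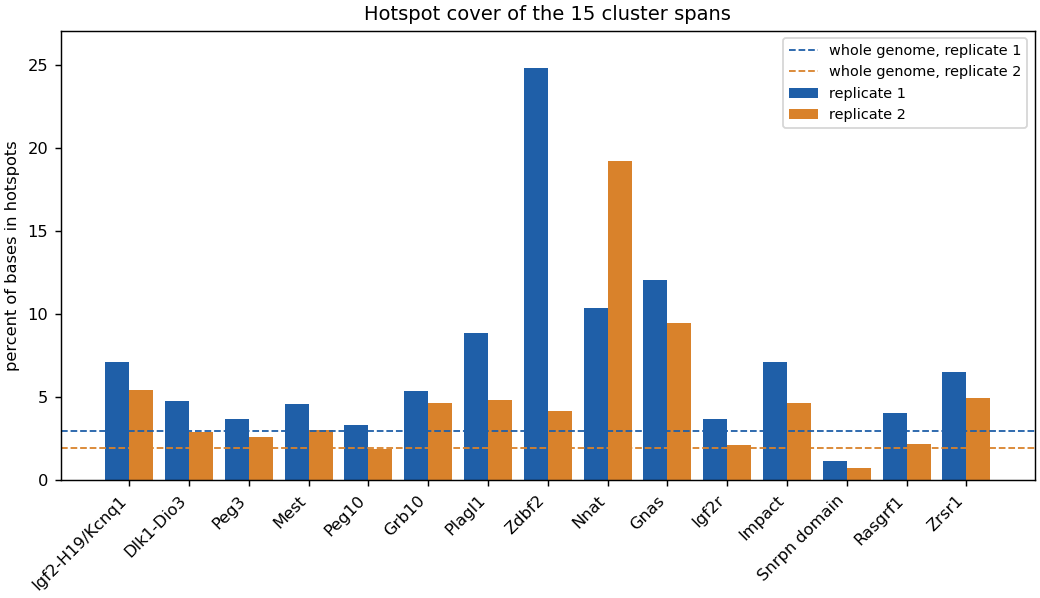
Percent of bases inside hotspots in each of the 15 cluster spans, blue for replicate 1 and orange for replicate 2, with the whole genome as dashed lines at 2.97% and 1.92%. Zdbf2 in replicate 1 at 24.8% and Nnat in replicate 2 at 19.2% stand far above their value in the other library, and the Snrpn domain lies below the genome in both.

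Distal peaks were those centred more than 1 kb from every coding TSS, each counted for whichever gene's TSS was closest. The 41 genes had 633 such peaks in replicate 1 and 502 such peaks in replicate 2 (mean 567.5 ± 92.6, SD, n = 2). At least 1 was found at 37 and 34 genes, where 73.7% and 69.8% of all coding genes had one. The density per 100 kb of territory, the genome nearest to a gene's TSSs, had a median of 10.2 and 6.38 over the 41 genes and 5.33 and 3.52 over all coding genes. With territories pooled the densities were closer, at 8.23 and 6.53 for the 41 genes and 5.99 and 4.43 for all coding genes. In both libraries 27 of the 41 genes were above the median of all genes. Their distal peaks lay at a median of 35234 and 32096 bp from the TSS, and all distal peaks at 34553 and 30544.5 bp.

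By cluster, replicates 1 and 2 gave 135 and 93 distal peaks in the Dlk1-Dio3 cluster, the most of any cluster in both. The Snrpn domain had 105 and 66, the Igf2-H19 and Kcnq1 domain 89 and 91, and Zdbf2 67 and 17. Peaks of the H19 control element are not in the count of that domain, because they lay outside the territory of Igf2. Near Mest there were 40 and 28, near Gnas 37 and 23, near Peg10 32 and 27, and near Peg3 26 and 21. The Nnat cluster had 23 and 72, Igf2r 22 and 22, Plagl1 18 and 11, Rasgrf1 18 and 12, Grb10 16 and 16, and Zrsr1 5 and 3. Impact had none. For their length, the genes of the Snrpn domain had the fewest apart from Impact, at 3.14 and 1.98 per 100 kb.

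The densest 5 genes, by the mean of both libraries, were Phlda2, Blcap, Zdbf2, Nnat and Mkrn3, a set that holds in neither library alone. In replicate 1 the densest 5 were Zdbf2, Gnas, Phlda2, Mkrn3 and Peg3, and in replicate 2 Phlda2, Blcap, Nnat, Mkrn3 and Slc22a18. Of these, Mkrn3 was close between libraries, at 25.1 and 20.6 per 100 kb. Phlda2 had 26.1 and 58.7, Blcap 12.1 and 56.0, Nnat 22.0 and 38.4, and Zdbf2 53.9 and 13.7. At the other end, Tssc4, Cd81, Impact and Commd1 had no distal peak in either library, and Ascl2, Zim1 and Copg2 had 1 or 2 in replicate 1 only. Tssc4 thus combined a promoter peak near the top of the ranking with no distal peak, in a territory of 7.99 kb. Commd1, with a territory of 9.36 kb, had its promoter peak at 98.9 and 95.2. The median over all coding genes with a promoter peak was 95.7 and 94.7.

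**Figure D4:**
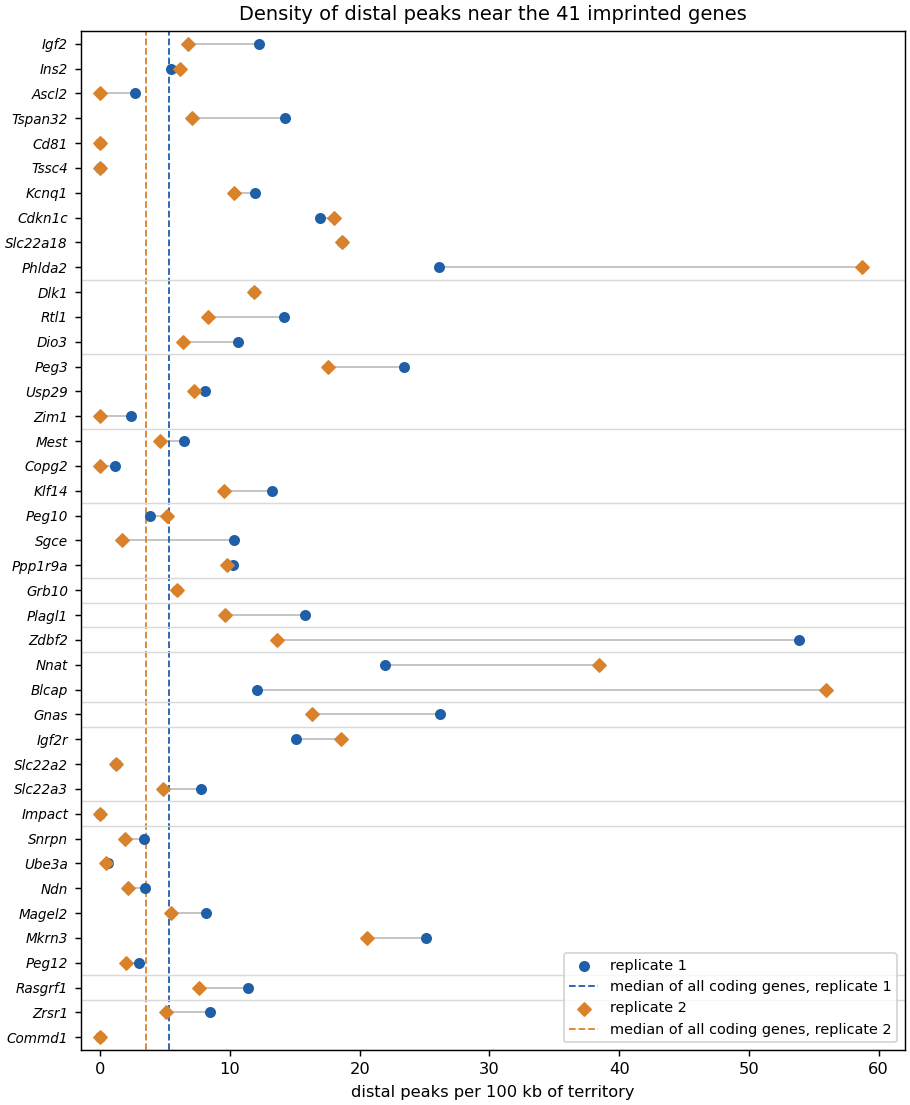
Distal peaks per 100 kb of territory for each of the 41 genes, circles for replicate 1 and diamonds for replicate 2 joined by a grey line, with the median of all coding genes as dashed lines at 5.33 and 3.52. Blcap, Zdbf2, Phlda2 and Nnat have the longest lines, with Zdbf2 higher in replicate 1 and the other 3 higher in replicate 2.

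The counts at Zdbf2 and at Blcap and Nnat differed between the libraries in opposite directions. Within 60 kb of the Zdbf2 start there were 85 peaks in replicate 1 and 22 in replicate 2, and 20 in each library overlapped a peak of the other. Of the 67 distal peaks of Zdbf2 in replicate 1, the 52 without a counterpart had a median percentile of 45.2, and the median spacing was 590 bp. One 50 kb bin at Zdbf2 held 59 peaks in replicate 1 and 12 in replicate 2, the third largest excess of replicate 1 among 41644 bins of the genome. The closely spaced peaks of replicate 1 began near the one 25995 bp upstream and continued past the start.

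Within 60 kb of the Nnat start there were 22 peaks in replicate 1 and 79 in replicate 2. Of those in replicate 2, 43 were below the 10th percentile of its scores. The 50 kb bin that holds the Nnat start had 10 peaks in replicate 1 and 39 in replicate 2, rank 27 by excess of replicate 2, and the Phlda2 bin had 16 and 22, rank 345. The 44 distal peaks of Blcap found in replicate 2 only had a median percentile of 1.81 and a median score of 5. At Phlda2 the 15 found in replicate 2 only had a median percentile of 2.84. The 11 distal peaks of Nnat itself found in replicate 2 only ranked higher, with a median percentile of 18.9, and 3 of its 21 were below the 10th. The peaks found in 1 library only were thus of middle rank at Zdbf2, lower at Nnat and near the bottom of the list at Blcap and Phlda2.

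Of 2416 coding genes with at least 20 distal peaks in a library, 4.68% had at least 3 times as many in replicate 1, as Zdbf2 did, and 1.49% at least 3 times as many in replicate 2, as Blcap did. Nnat, with 12 and 21 distal peaks, and Phlda2, with 8 and 18, differed by less than that. These genes were singled out after their values were seen, and what makes the libraries differ there was not tested. Without Zdbf2, Nnat and Blcap, the distal peaks numbered 543 and 413.

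**Figure D5:**
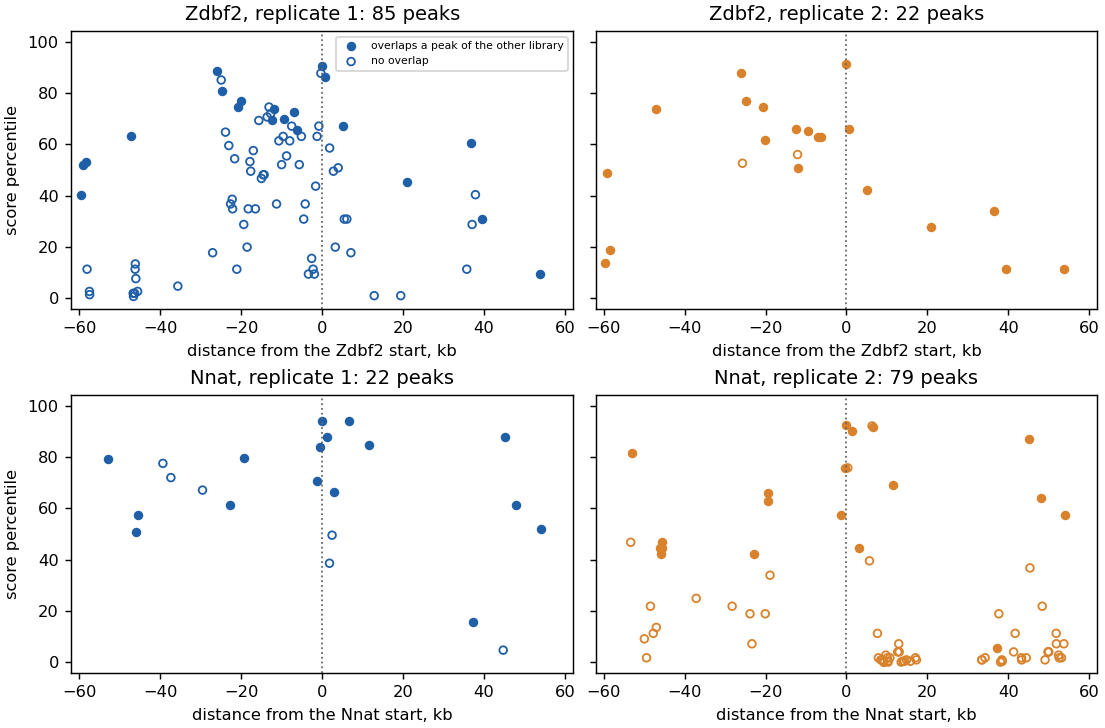
Peaks within 60 kb of the Zdbf2 and Nnat starts, by distance in kb and by score percentile within the library, filled where a peak of the other library overlaps; blue is replicate 1 and orange is replicate 2. Zdbf2 has 85 peaks in replicate 1 against 22, many of middle rank, and Nnat has 79 in replicate 2 against 22, of which 43 lie below the 10th percentile.

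Agreement of the libraries at these genes was near that of all peaks. Of the distal peaks near the 41 genes, 50.2% in replicate 1 and 64.9% in replicate 2 overlapped a peak of the other library, beside 48.2% and 66.4% of all distal peaks. For promoter peaks the shares were 75.6% and 79.5%, beside 79.6% and 83.7% of all. The mean over both directions was 57.6% for distal and 77.5% for promoter peaks, which describe 1 pair of libraries and have no replicate error.

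The strongest distal peak found in both libraries was taken in each cluster by its mean percentile. In the Gnas cluster it lay at the Nespas start, at chr2:174295436-174295585, with 96.5 and 96.0, the highest of all clusters. In the Igf2-H19 and Kcnq1 domain, counted without the H19 control element, it was intergenic, 22112 bp downstream of the Cdkn1c start, with 95.3 and 93.5. Near Peg10 it lay in the Peg10 intron, 1864 bp downstream of the start, with 94.1 and 94.7. Near Peg3 it was the peak on YY1 site 4 above. Near Nnat it was intergenic, 64576 bp upstream of Blcap, with 94.4 and 93.2, and it held a CTCF match.

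In the Dlk1-Dio3 cluster the strongest was intergenic, 149640 bp upstream of Rtl1, with 94.6 and 91.9. The Ndn peak at its RefSeq start led the Snrpn domain. Intronic peaks led Grb10, with 90.5 and 88.6 at 2908 bp upstream of a start, and Plagl1, with 91.4 and 86.5 at 1126 bp downstream of a start. The Klf14 side of the Mest cluster had 90.5 and 84.6 at 74132 bp upstream, again with a CTCF match. Rasgrf1 had 89.9 and 89.2 at 82598 bp upstream, in an exon of 4930524O08Rik, and Zdbf2 88.5 and 87.8 at 25995 bp upstream. At Igf2r the leading peak was the one at the Airn start, and at Zrsr1 the leading shared peak was weak, with 34.9 and 57.5. The CTCF consensus was found in 6.64% and 6.97% of the distal peaks near the 41 genes, beside 9.05% and 9.55% of all distal peaks.

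The proteins that set, keep or read imprints were taken as a list of 24 genes. A promoter peak was found at 20 in replicate 1 and 19 in replicate 2, beside 68.5% and 67.7% of all coding genes. Zfp57, whose product protects imprints, stood at 92.0 and 92.2. The maintenance methyltransferase gene Dnmt1 stood at 96.5 and 96.0, its cofactor Uhrf1 at 99.8 and 99.8, Ctcf at 98.1 and 99.3, and Yy1 at 99.96 and 99.7. Those without a promoter peak in either library were Ctcfl, Dppa3, Nlrp5 and Zfp42, genes known from germ cells and the early embryo. Dnmt3l, which sets imprints in germ cells, had only a peak at the 7.72 percentile in replicate 1.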

How the data were processed

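The authors deposited peak and hotspot lists called separately in each library on mm10, per the deposited file descriptions. For aligner, caller, version and threshold: not given in the sources used here. The score of a peak and the −log10 q-value of a hotspot are the authors' own deposited values. Scores were converted to mid-rank percentiles within a library. Repeated positions were removed, 45 in replicate 1 and 22 in replicate 2. GENCODE vM21 and GRCm38.p6, the assembly of mm10, gave 54361 TSSs of protein-coding transcripts, without the mitochondrial genome. Overlap required 1 bp. Motifs were sought on both strands. RefSeq starts came from a GRCm38.p6 table. Python 3.11.15, pandas 2.3.3, numpy 2.4.6 and pysam 0.24.0 were used, and the overlap code was checked on simulated regions. The genes, clusters, lists and motifs were chosen with earlier results of these data known. Genes named are all 41, the 5 densest, the leading shared distal peak of each cluster, and peaks at control elements, of which a selection is shown. The read depth is unknown, so no interval was computed.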

Additional observations from a re-analysis of the deposited data

How the results depend on the processing

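No paired analysis was possible because there is 1 group only. The number of genes with a promoter peak (mean 34.5, and 33 in both libraries) and with a promoter hotspot stayed within 1.5 times under every window, overlap, score, annotation and hotspot setting tried, at 33 to 35.5. Distal peaks averaged 567.5. They fell to 274 with peaks above the median score and to 351 within 50 kb of a TSS. When the TSSs of long noncoding RNA genes could also claim a peak, they fell to 266. Each of these settings can only lower the count, and the size of the fall over all coding genes was not measured. Hotspots at the highest −log10 q-value covered 2.39% of the spans. The shared percent of distal peaks rose to 72.2 for peaks above the median score. For promoter peaks it was 68.7 with 75 bp of overlap, 86.7 for peaks above the median score and 86.5 against hotspots of the other library. Leaving out Zdbf2, Nnat and Blcap, chosen after seeing the data, gave 478 distal peaks and a shared percent of 62.2, and leaving out the Zdbf2 and Nnat spans gave 3.03% cover. With 1 library alone, distal peaks ranged from 502 to 633, cover from 2.71% to 4.08%, the shared percent from 50.2 to 64.9 for distal and from 75.6 to 79.5 for promoter peaks, and promoter peak and hotspot counts from 34 to 35.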

Other observations

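A further list held 30 genes reported as imprinted outside the set above, of which 27 had a coding entry in the annotation. A promoter peak was found at 26 of them in replicate 1 and 27 in replicate 2, beside 68.5% and 67.7% of all coding genes. Ddc, which makes dopamine and serotonin from their precursors, was the exception, with a peak in replicate 2 only, at the 33.9 percentile. The lowest best promoter peaks among the other 26 were at Kcnk9, a potassium channel gene, with 50.9 and 33.9, Gpr1, a receptor gene, with 53.3 and 48.8, Dcn, a matrix proteoglycan gene, with 52.1 and 54.4, and Th, the first enzyme of dopamine synthesis, with 55.5 and 61.5. Trappc9, a trafficking gene, had 96.5 and 94.5, and the start of Peg13, a noncoding RNA within it, had 94.6 and 91.7. Gpr1, near Zdbf2, had 15 distal peaks in replicate 1 and 3 in replicate 2.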
